A study of Mus musculus with 8 samples.

Results

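The Ikaros family is a set of 5 zinc-finger transcription factor genes, Ikzf1 to Ikzf5, which encode Ikaros, Helios, Aiolos, Eos and Pegasus. They were taken by symbol from a table of 54837 mouse genes, all 5 were present, and all 5 passed the filter on low counts that left 18851 genes for testing. Their RNA was followed across 8 sequencing libraries of sorted splenic CD4 T cells in 3 groups. The question in the series title is how TIM-3, an inhibitory receptor, affects gene expression of regulatory T (Treg) cells, the FoxP3+ cells that restrain immune responses.

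GFPhi (n = 3) and GFPLow (n = 3) came from mice that carried Foxp3-eGFP-Cre-ERT2 together with FSF-TIM-3. In these mice the Foxp3 gene carries a green fluorescent reporter and a tamoxifen-dependent Cre recombinase. Both were sorted as TIM-3+ and FLAG+. GFPhi cells were GFP+ and FoxP3+, and GFPLow cells were GFP- and FoxP3-. WT (n = 2) cells were TIM-3-, FLAG-, GFP+ and FoxP3+, from mice with Foxp3-eGFP-Cre-ERT2 alone. All mice, WT included, had been given tamoxifen on 5 consecutive days. The labels do not give ages or say whether libraries of 1 group came from different animals. Sex-linked RNA differed between libraries within each group, so each group held more than 1 animal. Libraries alike in sex may still share an animal, so the spread between libraries may be partly technical. GFPhi and WT differ in the transgene and in the sorting gates at once, and these cannot be told apart.

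Ikaros family proteins bind DNA through zinc fingers near the N-terminus and pair with each other through fingers at the C-terminus. They recruit chromatin-modifying complexes, among them the nucleosome remodelling and deacetylase complex NuRD, to silence or maintain lymphocyte genes. Ikaros is needed for lymphocyte development. Helios is found in most Treg cells that arise in the thymus, where it helps to keep their identity. Eos acts with FoxP3 to silence genes in Treg cells. Aiolos is abundant in B cells and is also made by some helper T cells. Pegasus is the most distant member and binds other DNA sites.

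The shared ancestry is visible in the second zinc finger of each coding sequence, which lies in the DNA-binding cluster and is shown here because reads of such related genes could in principle be mixed up. Capitals mark the codons of the 4 residues that hold the zinc ion. Sequences are those of GENCODE vM21 transcripts, 5′ to 3′ on the coding strand, with GRCm38 positions, and each finger lies within 1 coding exon.
Ikzf1 (Ikaros, exon 6 of 9 of transcript Ikzf1-203, chr11:11754024-11754086, plus strand): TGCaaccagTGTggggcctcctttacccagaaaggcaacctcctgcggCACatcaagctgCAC
Ikzf2 (Helios, exon 5 of 8 of Ikzf2-207, chr1:69570581-69570643, minus strand): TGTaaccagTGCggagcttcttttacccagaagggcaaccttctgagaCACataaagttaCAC
Ikzf3 (Aiolos, exon 5 of 8 of Ikzf3-201, chr11:98488940-98489002, minus strand): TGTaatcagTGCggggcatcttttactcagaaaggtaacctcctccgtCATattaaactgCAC
Ikzf4 (Eos, exon 5 of 9 of Ikzf4-203, chr10:128640229-128640291, minus strand): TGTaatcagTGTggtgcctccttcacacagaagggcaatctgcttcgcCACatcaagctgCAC
Ikzf5 (Pegasus, exon 4 of 4 of Ikzf5-201, chr7:131392501-131392563, minus strand): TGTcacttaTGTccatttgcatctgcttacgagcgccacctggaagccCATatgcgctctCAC

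Of the 63 bases, 51 in Ikzf2, 51 in Ikzf3 and 53 in Ikzf4 were identical to Ikzf1, against 26 in Ikzf5. Over the aligned coding sequences, identity between pairs of members ran from 59.4% (Ikzf3 and Ikzf5) to 67.0% (Ikzf3 and Ikzf4). The longest identical run between annotated transcripts of 2 members was 32 bases (Ikzf2 and Ikzf4), and for the other 9 pairs it was 15 to 26 bases. The length of the reads is not given in the sources used here.

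The libraries held 44446215 to 55388756 counts each. WT library 1 stood apart. It held counts in 18599 genes (21248 to 22185 in the other 7), 6.54% of its counts were mitochondrial (2.35% to 2.78%), and its TMM scaling factor was 0.694 (1.041 to 1.07). WT library 2 held 14049 reads of the female-specific RNA Xist together with 357 of the Y-linked gene Ddx3y, so each WT library has its own limit, and the family's results against WT are given with and without each. GFPhi library 3 and GFPLow library 3 held Xist (12775 and 9490 reads) and no read of Ddx3y, while libraries 1 and 2 of both groups held 10336 to 12234 reads of Ddx3y and at most 14 of Xist. Sex was thus balanced between GFPhi and GFPLow. The sorted identity was visible in the RNA. Foxp3 ranged over 60.2 to 80.9 CPM (counts scaled to a common library size by the TMM method) for GFPhi, over 1.97 to 4.82 CPM for GFPLow and was 41.7 and 63.2 CPM for the WT pair. Of 6 T cell markers, Cd3e was at 190.1 to 494 CPM and Cd5 at 225 to 304 CPM in all 8 libraries. WT library 1 was lowest for Cd3e, for Cd4 (109 CPM, 288 to 436 in the other 7) and for Trac (721, 1232 to 1861). It was highest for Cd3d (4583 CPM, 1053 to 1245 in the other 7) and Cd3g (3777, 1346 to 1552). Foxp3 was part of the gates, so its direction is no finding. Summed myeloid markers (6 genes) ran from 0.339 to 22.6 CPM in GFPhi and from 5.06 to 230.8 CPM in GFPLow, highest in GFPLow library 3. Of 6 natural killer cell markers, Klrb1c was at 1.13 to 2.49 CPM in GFPhi and higher, at 10.05 to 31.4 CPM, in GFPLow (adjusted p = 0.0353 by edgeR). Klrd1 (0 to 0.376 against 14.4 to 19.2 CPM) and Eomes (1.07 to 3.81 against 7.40 to 10.4 CPM) did not overlap either but did not pass. Libraries did not overlap in 30% of all genes. In GFPLow, Ncr1 (7.81 CPM) and Klra8 (2.79 CPM) had reads in library 3 only, and in GFPhi Ncr1 had reads in library 2 only (0.885 CPM) and Klra8 had none. The summed list, mostly Nkg7, was 183 to 362 CPM in GFPhi and 244 to 363 CPM in GFPLow. The part of these cell type markers in the results was not tested.

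The comparison of GFPhi with GFPLow asks how FoxP3+ and FoxP3- cells of the same transgenic genotype differ. Of the 5 family genes, Ikzf2 and Ikzf4 were higher in GFPhi, Ikzf1 was lower, and Ikzf3 and Ikzf5 did not pass the test (edgeR quasi-likelihood, Benjamini-Hochberg adjusted p under 0.05 over all genes tested). Across all genes, 426 of 18851 passed, 2.26% (1.63% higher and 0.626% lower in GFPhi), and 11.6% had an unadjusted p under 0.05. Ikzf4 differed 9.50-fold and Ikzf2 5.56-fold in 1 direction, and Ikzf1 differed 2.01-fold in the other. In bulk libraries such as these, fewer cells that express a gene and less RNA per cell cannot be told apart.

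**Figure D1:**
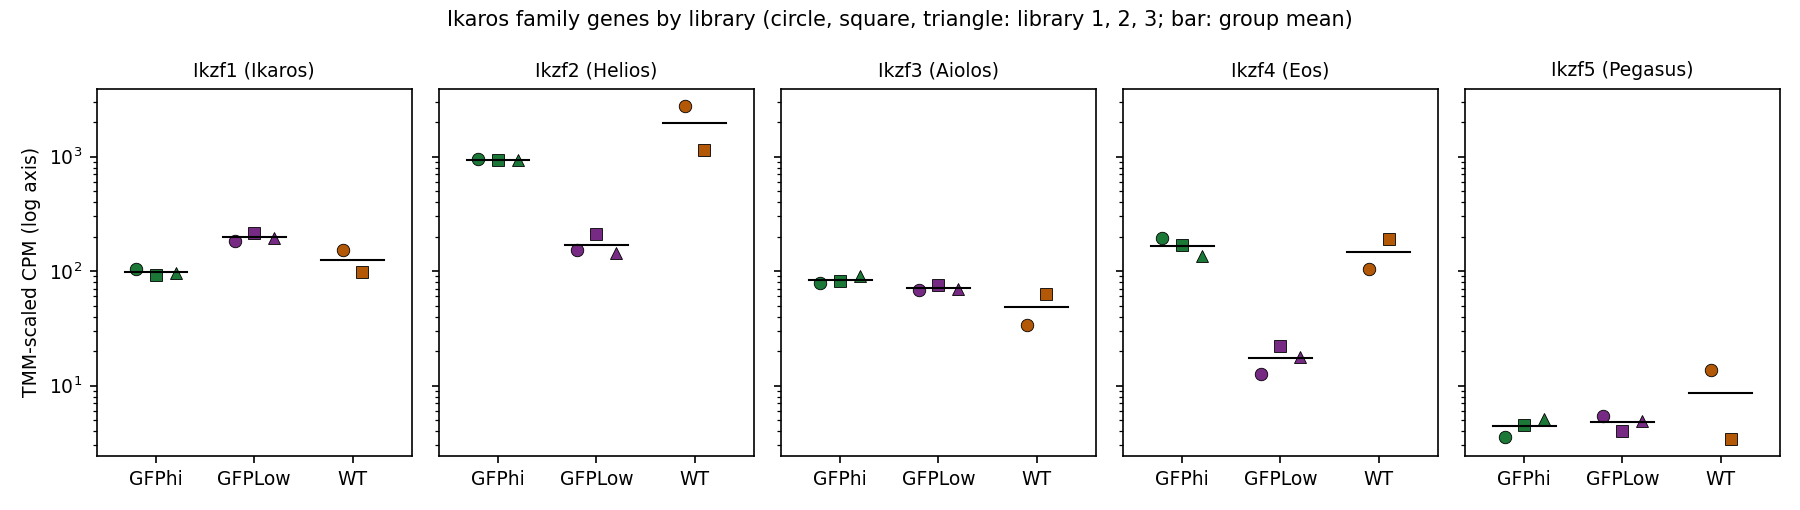
TMM-scaled CPM of the 5 Ikaros family genes in each library, on a log axis, by group; symbols give the library number and bars the group mean. The GFPhi libraries of Ikzf2 (929 to 959.7 CPM) and Ikzf4 (136 to 193 CPM) lie above all GFPLow libraries, those of Ikzf1 lie below, and WT libraries 1 and 2 lie far apart for Ikzf2 (2786 and 1149 CPM).

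Ikzf4 (ENSMUSG00000002578, GRCm38 chromosome 10, 128630843 to 128645991, minus strand) encodes Eos, the FoxP3 corepressor. It was at 193, 169.8 and 136 CPM in GFPhi libraries 1 to 3 and at 12.6, 22.02 and 17.9 CPM in GFPLow libraries 1 to 3. The lowest GFPhi library thus lay well above the highest GFPLow library. The log2 fold change was 3.25 ± 0.32 (SE, adjusted p = 0.0031 by edgeR's quasi-likelihood test), and by p-value the gene ranked 42 among the 18851. Ikzf4 passed under each of the 20 alternative fits, with an adjusted p of at most 0.0238.

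Ikzf2 (ENSMUSG00000025997, chromosome 1, 69531214 to 69687245, minus strand) encodes Helios. It was at 959.7, 929 and 932 CPM in GFPhi, a spread of ± 16.9 (SD, n = 3) about a mean of 940.2 CPM. In GFPLow it was at 153, 210.4 and 144 CPM. The groups did not overlap, and GFPLow varied more between libraries than GFPhi, relative to its mean of 169 CPM (± 36.1, SD, n = 3). The log2 fold change was 2.48 ± 0.34 (SE, adjusted p = 0.0108 by edgeR). With GFPhi library 1 or 2, or GFPLow library 1 or 3, left out, the adjusted p was 0.0591, 0.0551, 0.0742 and 0.0696. The log2 fold change stayed between 2.37 and 2.66 with any 1 library left out. With the GFPhi and GFPLow libraries alone, where 12.3% of all genes passed, it was 2.48 ± 0.14 (SE, adjusted p = 6.74e-05 by edgeR).

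GFPLow cells stood at unequal shares of the GFPhi level of Treg genes. Ikzf4 was at 10.5% of its GFPhi mean (7.58% to 13.2% by library) and Ikzf2 at 18.0% (15.3% to 22.4%). Of the 6 Treg markers, 3 were lower than both, Foxp3 at 4.42% (2.83% to 6.92%), Il2ra, an IL-2 receptor chain, at 2.02% (1.26% to 2.81%) and Lrrc32, which presents latent TGF-beta, at 1.08% (0.52% to 1.91%). Ctla4, an inhibitory receptor, lay between the 2 family genes at 14.02% and overlapped both (12.8% to 16.1%). Nrp1, a surface receptor, was at 26.4% (21.95% to 33.9%) and Tnfrsf18, the receptor GITR, at 30.2% (28.2% to 32.4%), so Ikzf2 and Ikzf4 lay within the spread of the Treg markers. The share of Treg cells in the GFPLow sort was not measured here, and its part in these levels was not tested.

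Ikzf1 (ENSMUSG00000018654, chromosome 11, 11685003 to 11772926, plus strand) encodes Ikaros, the founding member. It was at 104, 92.1 and 96.4 CPM in GFPhi, against 182, 213 and 194 CPM in GFPLow. All GFPhi libraries lay below all GFPLow libraries, and the log2 fold change was -1.01 ± 0.20 (SE, adjusted p = 0.0405 by edgeR). This call was close to the threshold. It was lost when any 1 of the 6 GFPhi and GFPLow libraries was left out (adjusted p 0.137 to 0.205) and was kept without WT library 1 (adjusted p = 0.000335) or WT library 2 (0.000315), and with the GFPhi and GFPLow libraries alone (0.000299), where 12.3% of all genes passed. Upper-quartile scaling also ended it (adjusted p = 0.0767). The size of the difference hardly moved, from -1.06 to -0.95 over the 20 alternative fits.

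Ikzf3 (ENSMUSG00000018168, chromosome 11, 98464902 to 98546031, minus strand) encodes Aiolos. It was at 78.4, 82.1 and 90.7 CPM in GFPhi, against 67.8, 75.3 and 69.4 CPM in GFPLow. The libraries did not overlap, which was so for 30% of all 18851 genes, and the log2 fold change of 0.24 ± 0.23 did not pass (SE, adjusted p = 0.929 by edgeR). Its 95% confidence interval ran from -0.29 to 0.77, so differences within that range are not excluded. With the GFPhi and GFPLow libraries alone, the log2 fold change was 0.24 ± 0.08 (SE, adjusted p = 0.111 by edgeR). B cells are rich in Aiolos. The B cell markers Ms4a1, Ebf1 and Blk were at 0.83 CPM or less in all 8 libraries. The summed B cell markers were 46.4 to 54.0 CPM in GFPhi and 8.35 to 16.9 CPM in GFPLow, most of it Cd79b in GFPhi (43.2 to 50.1 CPM).

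Ikzf5 (ENSMUSG00000040167, chromosome 7, 131388652 to 131410521, minus strand) encodes Pegasus and had the lowest counts of the family, 190 to 423 reads per library. It was at 3.56, 4.52 and 5.11 CPM in GFPhi, against 5.45, 4.02 and 4.88 CPM in GFPLow, with overlapping libraries. The log2 fold change was -0.12 ± 0.48 (SE, adjusted p = 1.0 by edgeR), with a 95% confidence interval from -1.23 to 0.99. Of its 5721 exonic bases, 4652 are also exonic in Pstk on the opposite strand, and 886 belong to no other gene. Pstk, which encodes a kinase of selenocysteine synthesis, was at 30.8 to 38.6 CPM in the GFPhi and GFPLow libraries. With no strand setting stated, reads of this overlap may be missing from Ikzf5 or shared with Pstk.

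**Figure D2:**
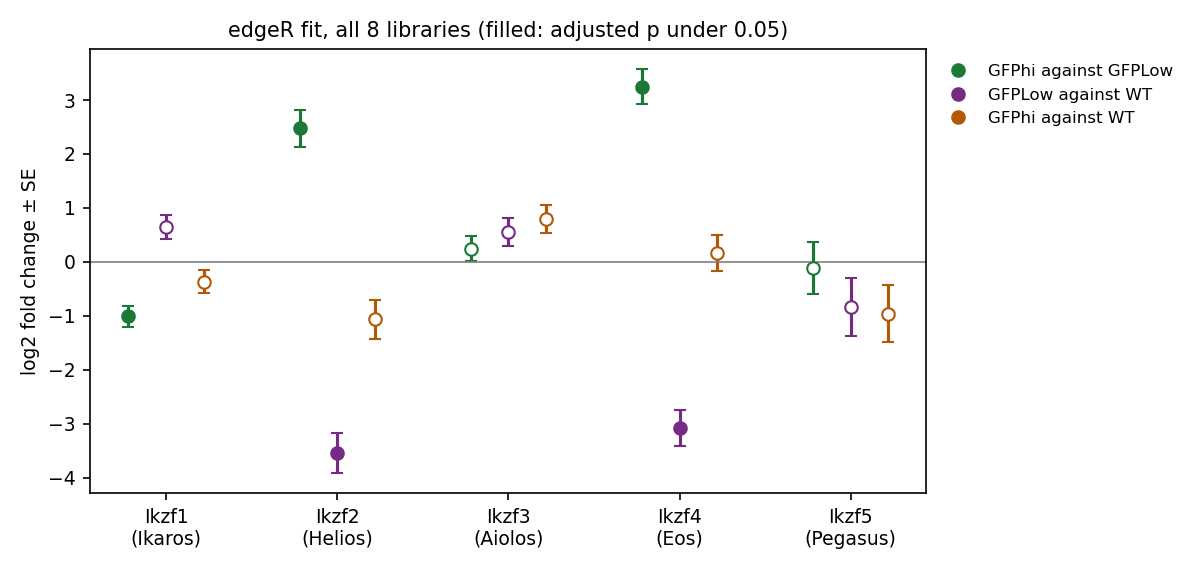
Log2 fold changes of the 5 family genes with their standard errors in the 3 comparisons of the edgeR fit to all 8 libraries; filled points passed the adjusted p threshold of 0.05. Ikzf2 and Ikzf4 are filled in both comparisons with GFPLow, with log2 fold changes of 2.48 and 3.25 in GFPhi against GFPLow and -3.54 and -3.08 in GFPLow against WT, and no gene is filled in GFPhi against WT.

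The comparison of GFPLow with WT sets FoxP3- cells with TIM-3 beside FoxP3+ cells without it. Ikzf2 and Ikzf4 were lower in GFPLow, 11.6-fold and 8.46-fold, and the other 3 members did not pass. Across all genes 623 of 18851 passed, 3.3% (1.08% higher and 2.23% lower in GFPLow), and 25% had an unadjusted p under 0.05. Without WT library 1, 5.88% of all genes passed, and without WT library 2, 43.9%. This comparison shares the GFPLow libraries with the one above, so its direction is not separate evidence.

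Ikzf2 stood at 2786 CPM in WT library 1 and at 1149 CPM in WT library 2, both far above the 144 to 210.4 CPM of GFPLow. The log2 fold change was -3.54 ± 0.37 (SE, adjusted p = 0.00432 by edgeR). It was -2.76 ± 0.17 without WT library 1 (adjusted p = 0.000207) and -4.02 ± 0.17 without WT library 2 (1.15e-06). A fit to the GFPLow and WT libraries alone did not pass (adjusted p = 0.0689).

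Ikzf4 was at 104 and 192 CPM in WT libraries 1 and 2, again above all GFPLow libraries. Its log2 fold change was -3.08 ± 0.33 (SE, adjusted p = 0.00436 by edgeR), -3.45 ± 0.26 without WT library 1 (adjusted p = 0.000548) and -2.55 ± 0.26 without WT library 2 (0.000109). With the GFPLow and WT libraries alone the adjusted p was 0.0671.

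Ikzf1 was at 153 and 98.8 CPM in WT, below each GFPLow library, yet its log2 fold change of 0.64 ± 0.22 did not pass with all 8 libraries (adjusted p = 0.137 by edgeR). It passed when either WT library was left out, at 0.998 ± 0.12 without WT library 1 (adjusted p = 0.00361) and at 0.38 ± 0.12 without WT library 2 (0.0284). The WT libraries differed by more than the GFPLow libraries did, and leaving 1 out leaves a single WT library that is assumed to vary like the others. Ikzf3 was at 33.7 and 62.8 CPM in WT, also below each GFPLow library, with a log2 fold change of 0.55 ± 0.26 (adjusted p = 0.229). Libraries did not overlap in 40.3% of all genes in this comparison. Ikzf3 passed without WT library 2 (1.10 ± 0.13, adjusted p = 0.000243) and not without WT library 1 (0.18 ± 0.12, adjusted p = 0.502). Ikzf5 was at 13.7 and 3.41 CPM in WT, on both sides of the GFPLow libraries (-0.84 ± 0.53, adjusted p = 0.339), and turned to 0.49 ± 0.37 without WT library 1.

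The comparison of GFPhi with WT, both FoxP3+, bears on the question in the series title. None of the 5 members passed edgeR's test, as none of the 18851 genes did (0%, with 2588 genes, 13.7%, at an unadjusted p under 0.05). DESeq2 called 320 genes here and limma voom 0, and Ikzf2 was among those DESeq2 called (adjusted p = 0.0421). Ikzf2 and Ikzf3 had an unadjusted p of 0.0173 and 0.0167.

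Ikzf2 in GFPhi (929 to 959.7 CPM) lay below both WT libraries (2786 and 1149 CPM), and Ikzf3 in GFPhi (78.4 to 90.7 CPM) lay above both (33.7 and 62.8 CPM). Libraries did not overlap in 28.1% of all genes. The log2 fold change of Ikzf2 was -1.07 ± 0.36 (SE, adjusted p = 0.348 by edgeR), -0.29 ± 0.18 without WT library 1 (0.955) and -1.54 ± 0.17 without WT library 2 (0.00018). That of Ikzf3 was 0.79 ± 0.26 (adjusted p = 0.348), 0.41 ± 0.12 without WT library 1 (0.955) and 1.34 ± 0.13 without WT library 2 (9.8e-05). Both thus passed where WT library 1 was the remaining WT library, a fit in which 40.1% of all genes passed, and not where WT library 2 was.

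Ikzf4 in GFPhi (136 to 193 CPM) overlapped the WT libraries (104 and 192 CPM), with 1 GFPhi library just above the higher of them. Its log2 fold change of 0.17 ± 0.33 had a 95% confidence interval from -0.59 to 0.92 (adjusted p = 0.803 by edgeR), and it was -0.21 ± 0.28 without WT library 1. Ikzf1 differed by -0.37 ± 0.22 (adjusted p = 0.43), with the GFPhi libraries at 92.1 to 104 CPM and WT at 153 and 98.8 CPM. It stood at -0.02 ± 0.11 without WT library 1 and passed without WT library 2 (-0.63 ± 0.11, adjusted p = 0.00239). Ikzf5 differed by -0.96 ± 0.53 (adjusted p = 0.416), by 0.36 ± 0.365 without WT library 1, and by -1.61 ± 0.31 without WT library 2 (adjusted p = 0.00375).

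To set members beside each other, levels were divided by the length of all annotated exons of each gene (CPM per kb). In GFPhi the order was Ikzf2 at 81.0 ± 1.46, Ikzf4 at 27.7 ± 4.78, Ikzf1 at 16.9 ± 1.07, Ikzf3 at 9.57 ± 0.72 and Ikzf5 at 0.769 ± 0.14 CPM per kb (SD, n = 3). In GFPLow it was Ikzf1 at 34.0 ± 2.75, Ikzf2 at 14.6 ± 3.11, Ikzf3 at 8.09 ± 0.45, Ikzf4 at 2.92 ± 0.79 and Ikzf5 at 0.837 ± 0.13 CPM per kb (SD, n = 3). Libraries of neighbours in these orders did not overlap. Ikzf2 thus stood first in FoxP3+ cells and Ikzf1 first in FoxP3- cells of the transgenic mice.

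Some of these ranks depended on the length used. With the longest annotated transcript as the length, Ikzf1 (17.8 to 20.2 CPM per kb) and Ikzf3 (17.0 to 19.7) overlapped in GFPhi, and Ikzf2 (15.5 to 22.7) and Ikzf3 (14.7 to 16.3) overlapped in GFPLow. With the exonic bases that belong to no other gene, Ikzf5 stood at 4.54 to 6.16 CPM per kb in GFPLow, above Ikzf4 at 2.12 to 3.70. The first place of Ikzf2 in GFPhi and of Ikzf1 in GFPLow held under all 3 lengths.

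**Figure D3:**
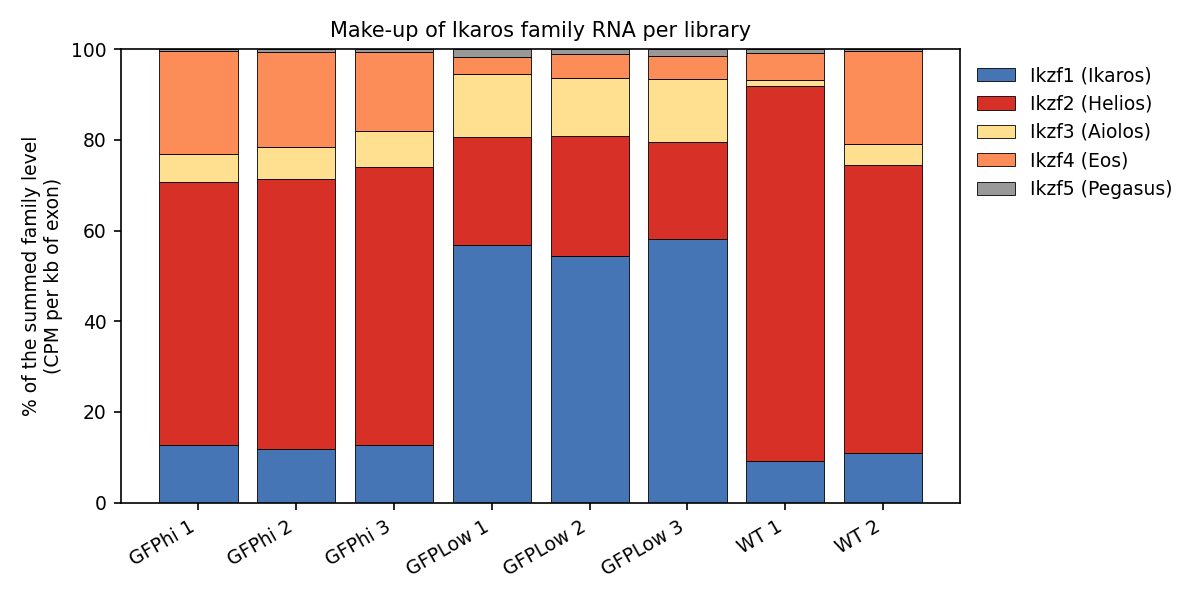
Share of each member in the summed family level (CPM per kb of exon) in each of the 8 libraries. Ikzf2 makes up 58.0% to 61.3% in the GFPhi libraries and 21.4% to 26.6% in the GFPLow libraries, where Ikzf1 makes up 54.3% to 58.2%.

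As a share of the summed family level, Ikzf2 held 59.6% ± 1.66 in GFPhi and 23.9% ± 2.61 in GFPLow, and 82.7% and 63.5% in WT libraries 1 and 2. Ikzf1 held 12.4% ± 0.49 in GFPhi, 56.4% ± 1.97 in GFPLow, and 9.15% and 10.98% in WT (SD, n = 3 for GFPhi and GFPLow). Ikzf4 held 17.3% to 22.6% in GFPhi, 3.79% to 5.40% in GFPLow, and 5.997% and 20.5% in WT. The ratio of Ikzf2 to Ikzf1, both per kb, was 4.58, 5.02 and 4.81 in GFPhi libraries 1 to 3, 0.418, 0.49 and 0.368 in GFPLow, and 9.04 and 5.79 in WT. Every FoxP3+ library was above 1 and every FoxP3- library below it. The summed level was 130.9 to 142 CPM per kb in GFPhi, 55.5 to 68.0 in GFPLow, and 290.1 and 156 in WT, so GFPLow held less family RNA in all.

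Annotated genes that overlap a member were examined because they share its locus and were not chosen by value. Those at Ikzf1, Ikzf3 and Ikzf5 that could be tested did not pass in GFPhi against GFPLow. Their log2 fold changes were -1.35 ± 1.36 (Gm11999) and 0.23 ± 0.997 (Gm12000) at Ikzf1 and 0.88 ± 1.32 (Gm25106) at Ikzf3 (SE). At Ikzf5 they were -0.15 ± 0.27 (Pstk), 0.69 ± 1.21 (Gm44624) and -0.81 ± 0.60 (Gm44625). Gm26876 at Ikzf4 and Fgfr2 at Ikzf5 did not pass the filter on low counts. Inside Ikzf2 introns lie Gm29112 (chromosome 1, 69595036 to 69598522) and Gm28112 (69660187 to 69662061), non-coding and on the same strand. Both were higher in GFPhi than in GFPLow, like their host. Gm29112 was at 52.3, 43.99 and 47.0 CPM in GFPhi, against 7.23, 10.04 and 5.25 CPM in GFPLow (log2 fold change 2.67 ± 0.34, SE, adjusted p = 0.00768 by edgeR). Gm28112 was at 35.6, 33.3 and 29.7 CPM against 5.17, 7.62 and 4.13 CPM (2.54 ± 0.27, adjusted p = 0.00459).

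Both intronic genes were at shares of their GFPhi mean in GFPLow (15.7% and 17.2%) close to that of Ikzf2 (18.0%). Reads of unspliced Ikzf2 RNA and of these genes cannot be told apart. The antisense gene Gm29114 (69513932 to 69547707, plus strand) overlaps the 3′ part of Ikzf2 and reaches beyond it. It was at 4.54, 7.25 and 5.76 CPM in GFPhi, against 0.0934, 0.0203 and 0.407 CPM in GFPLow, where 5, 1 and 21 reads were counted (5.05 ± 0.84, adjusted p = 0.0227). The WT libraries held 6.85 and 5.81 CPM of it. With no strand setting stated, reads of Ikzf2 RNA from the stretch where the 2 genes overlap may have been counted as Gm29114. Its levels are therefore not separate from those of Ikzf2. All 3 genes were also lower in GFPLow than in WT (adjusted p 0.00487 for Gm29112, 0.00606 for Gm28112 and 0.0202 for Gm29114), and passed there without either WT library too. None passed in GFPhi against WT with all 8 libraries. Without WT library 2, Gm29112 passed there as lower in GFPhi (-0.85 ± 0.28, adjusted p = 0.0445), and without WT library 1 it stood at 0.14 ± 0.30 (adjusted p = 1.0).

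**Figure D4:**
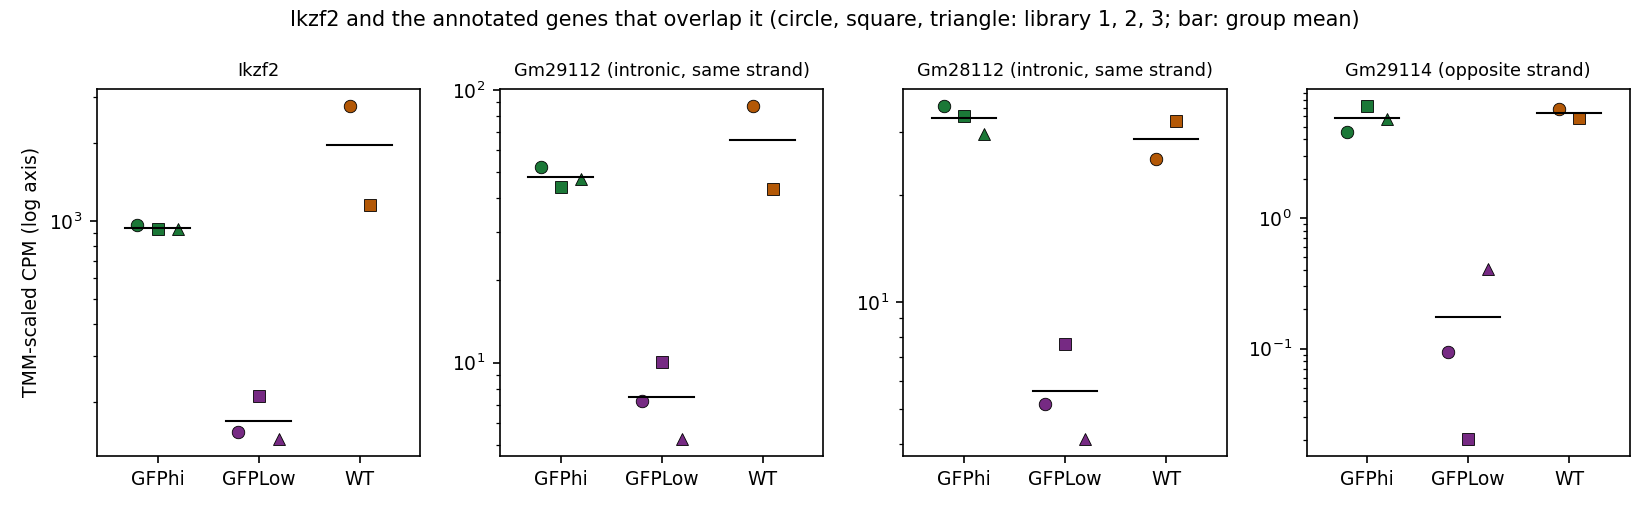
TMM-scaled CPM, on log axes that differ between panels, of Ikzf2 and of the 3 annotated non-coding genes that overlap it; symbols give the library number and bars the group mean. In each panel all GFPLow libraries lie below all GFPhi and WT libraries, with Gm29114 at 0.0203 to 0.407 CPM in GFPLow against 4.54 to 7.25 CPM in GFPhi.

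Genes that work with the family were taken from lists by function. The 13 NuRD genes encode the remodelling and deacetylase complex that Ikaros proteins recruit. None passed in GFPhi against GFPLow with all 8 libraries, where 2.26% of all genes passed, so this is no result about so short a list. Their median log2 fold change was -0.0028 against 0.011 over all genes tested. The members with the smallest p were Rbbp7, a histone chaperone (0.25 ± 0.16, SE), Mbd3, a scaffold subunit (0.59 ± 0.49), Chd4, the remodelling ATPase (0.32 ± 0.30), and Hdac1, a deacetylase (0.29 ± 0.28), with adjusted p from 0.722 to 0.936 by edgeR. Without WT library 1, Chd4, Hdac1 and Mbd3 passed as higher in GFPhi, where 9.66% of all genes passed. Without WT library 2, Rbbp7 passed too, where 9.64% of all genes passed.

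The next lists held 4 Sin3 and CtBP corepressor genes and 5 genes of the cereblon ubiquitin ligase. Thalidomide-like drugs turn that ligase against Ikaros and Aiolos. None passed in GFPhi against GFPLow, where 2.26% of all genes passed, so this is no result about these short lists. Ctbp1, the corepressor with which Eos acts, was at 26.2 CPM on average in GFPhi and at 28.4 CPM in GFPLow (-0.11 ± 0.24). Crbn, the substrate receptor of the ligase, was at 186 and 172 CPM (0.11 ± 0.15). Median log2 fold changes were 0.05 and 0.09. In that comparison neither list had a member that passed without WT library 1 or without WT library 2.

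**Figure D5:**
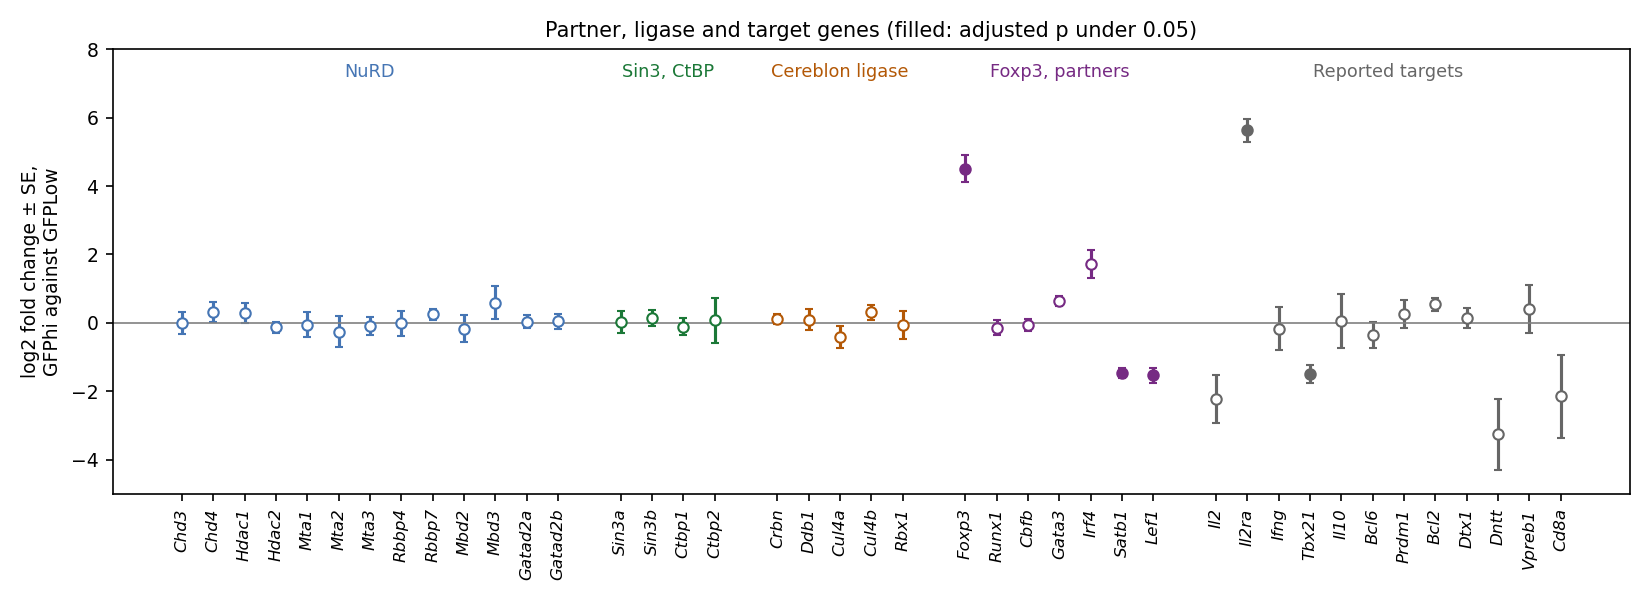
Log2 fold changes (GFPhi against GFPLow) with standard errors for the partner, ligase and target genes that could be tested; filled points passed the adjusted p threshold of 0.05. The corepressor and ligase genes lie between -0.42 and 0.59 with none filled. Filled are 5 genes, Foxp3, Satb1, Lef1, Il2ra and Tbx21, where 2.26% of all genes passed.

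Of 7 genes for Foxp3 and its partner factors, 1 was higher in GFPhi than in GFPLow (Foxp3, part of the gates) and 2 were lower. Across all genes 2.26% passed. Satb1, a chromatin organiser, was at 143 CPM on average in GFPhi and at 395 CPM in GFPLow (-1.47 ± 0.15, SE, adjusted p = 0.00338 by edgeR). Lef1, a transcription factor of naive T cells, was at 214 and 621 CPM (-1.54 ± 0.22, adjusted p = 0.0117). Gata3, a T helper 2 factor also used by Treg cells, was at 86.8 and 55.4 CPM (0.65 ± 0.14, adjusted p = 0.0673) and did not pass. With the GFPhi and GFPLow libraries alone, where 12.3% of all genes passed, Gata3 and Irf4 passed too. The list's median log2 fold change was -0.05. In GFPLow against WT, where 3.3% of all genes passed, Satb1 and Lef1 were higher and Foxp3 lower. In GFPhi against WT none of the 7 passed, as no gene did. Gata3 stood at -0.61 ± 0.11 in GFPLow against WT without WT library 1. Without WT library 2, Lef1 stood at 0.73 ± 0.08 and Runx1 at 0.90 ± 0.17 in GFPhi against WT.

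Of 15 genes reported to be regulated by Ikaros family proteins in lymphocytes, 12 could be tested. Of these, 1 was higher and 1 lower in GFPhi than in GFPLow, where 2.26% of all genes passed. Il2ra was at 577.5 CPM on average in GFPhi and at 11.7 CPM in GFPLow (5.63 ± 0.35, SE, adjusted p = 0.00103 by edgeR). Tbx21, which encodes the T helper 1 factor T-bet, was at 6.04 and 17.0 CPM (-1.49 ± 0.27, adjusted p = 0.0295). Il2, the T cell growth factor gene, was at 0.78 and 3.66 CPM (-2.23 ± 0.71, adjusted p = 0.21), and Dntt, an enzyme of receptor gene rearrangement, at 0.977 and 9.42 CPM (-3.27 ± 1.05, adjusted p = 0.216). With the GFPhi and GFPLow libraries alone, where 12.3% of all genes passed, Il2 and Dntt passed as lower and Bcl2 as higher in GFPhi. The median log2 fold change of the 12 genes was -0.06. In GFPLow against WT, where 3.3% of all genes passed, Tbx21 was higher and Il2ra and Bcl2 were lower. In GFPhi against WT none of the 12 passed, as no gene did. No gene of the NuRD, corepressor or ligase lists passed against WT with all 8 libraries or without WT library 1.

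Without WT library 2, where WT library 1 was the only WT library and 40.1% of all genes passed in GFPhi against WT, many list members passed. In GFPhi against WT these were 8 higher and 1 lower of the 13 NuRD genes, 1 higher and 1 lower of the 4 corepressor genes, 3 higher and 1 lower of the 5 ligase genes, and 5 higher and 2 lower of the 12 targets. In GFPLow against WT, where 43.9% of all genes passed, they were 8 and 1, 1 and 1, 2 and 1, and 6 and 2 in the same order. With WT library 1 left out instead, none of the 12 targets passed in GFPhi against WT, and Tbx21, Il2ra and Bcl2 passed in GFPLow against WT.

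Genes whose pattern over the 8 libraries was most like that of each member were found among 8135 genes with a mean log2 CPM above 3, as a description, since the libraries share groups and depth. For Ikzf4 they were Adamts6, a secreted protease (Pearson r = 0.995 over 8 libraries), Ptger2, a prostaglandin E2 receptor (0.994), and Prnp, the prion protein gene (0.994), and r was 0.995 to 0.998 without WT library 1. For Ikzf2 they were Prg4, a lubricating proteoglycan (0.995), Tgfbr1, a TGF-beta receptor chain (0.994), and Bmpr2, a bone morphogenetic protein receptor (0.993). Tgfbr1 was at 74.8 to 89.2 CPM in GFPhi and at 29.0 to 34.0 CPM in GFPLow, while WT libraries 1 and 2 held 162 and 84.8 CPM. As for Ikzf2, WT library 1 was highest and the GFPLow libraries lowest.

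For Ikzf1 they were Snx4, a sorting nexin (0.989), Ptpra, a receptor tyrosine phosphatase (0.986), and Actn1, an actin crosslinker (0.986). Actn1 was at 16.9 to 17.6 CPM in GFPhi, against 38.7 to 43.1 CPM in GFPLow. For Ikzf3 they were Mybbp1a (0.990), Ddost (0.982) and D10Wsu102e (0.982), and for Ikzf5 Klhl9 (0.983), Dctn6 (0.981) and Cmc4 (0.980). Without WT library 1 these fell to between 0.868 and 0.957 for Ikzf3 and to between 0.853 and 0.885 for Ikzf5.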

How the data were processed

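Cells were sorted into lysis buffer and libraries made with SMART-Seq HT and Nextera XT kits, per the labels' protocols. The authors deposited raw whole-number counts for each Ensembl gene. The submitters' processing notes list build GRCm38 and the tools HTSeq 0.11.2, HISAT2 2.1.0, SAMtools 1.9, R 4.0 and edgeR. What each did, which annotation was used and whether reads were counted by strand is not given in the sources used here. Symbols came from GENCODE vM21 for 54808 of 54837 identifiers. Counts without molecular identifiers are not independent molecules.

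Genes were filtered by filterByExpr, scaled by TMM and fitted in 1 edgeR 4.0.16 quasi-likelihood model of the 3 groups over all 8 libraries. Dispersions were robust, with 5 residual degrees of freedom. On data simulated for GFPhi against GFPLow, the fit recovered 0% of changed genes at a log2 fold change of 0.5 and 2% at 1. It recovered 54% at 2 and 76% at 3, so a gene that did not pass may still differ. The simulated counts used the dispersions of the fit to all 8 libraries, WT included. Changes, up or down, were put only into genes above a minimum mean count. These rates therefore describe that fit and may not hold for the GFPhi and GFPLow libraries alone. Tests are two-sided. SE is the log2 fold change divided by the root of the F statistic. Alternatives used other scalings and filters, DESeq2 1.42.0, limma 3.58.1 voom, non-robust dispersions, a block for replicate number, fewer libraries and another gene length. DESeq2 and voom without WT library 1, and the list counts without a WT library, were added after seeing the data. Sequences are from the GENCODE vM21 transcript with the longest complete coding sequence, read with Biopython 1.88, and fingers from a C2H2 pattern in frame. The members and lists were chosen with earlier results of these data known. The 5 members were always named, with up to 4 genes per list by smallest adjusted p in GFPhi against GFPLow and the 3 genes most like each member, without predicted genes. Other genes named were chosen after their values were seen, except those that overlap a member. Python 3.11.15 and R 4.3.3 ran the work, with matplotlib 3.10.9 and pandas 2.3.3.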

Additional observations from a re-analysis of the deposited data

How the results depend on the processing

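Ikzf4 in GFPhi against GFPLow kept its direction and stayed past the threshold in all 20 alternatives (log2 fold change 3.06 to 3.45), Ikzf2 in 15 and Ikzf1 in 12. Counts of genes called depended far more on the setting than the members' fold changes did, and the cause was not tested. In GFPhi against GFPLow (426 genes) the count was 1375 by DESeq2, 2271 by voom, 2105 with both groups alone, and 3246 and 2105 by DESeq2 and voom without WT library 1. In GFPhi against WT (0 genes) it was 1 with no filter, 320 by DESeq2 and 72 by DESeq2 without WT library 1. In GFPLow against WT (623 genes) it was 3243 by DESeq2, 72 by voom, 33 with both groups alone, and 2449 and 1418 by DESeq2 and voom without WT library 1. With 1 library left out, the counts ran from 105 to 1984, from 0 to 8234 and from 213 to 9002. The largest of these came without WT library 1 in the first comparison, where the count without WT library 2 was nearly the same. In both comparisons with WT the largest came without WT library 2.

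Among the members, Ikzf1 in GFPhi against GFPLow did not pass with upper-quartile scaling (-0.999). In GFPLow against WT, Ikzf2 (-3.55) and Ikzf4 (-3.09) did not pass with both groups alone, a fit of fewer libraries. In GFPhi against WT, DESeq2 called Ikzf2 (-1.10). DESeq2 and voom without WT library 1 called Ikzf1 in GFPLow against WT (0.997 and 0.99). They turned the sign of Ikzf4 in GFPhi against WT (-0.21 and -0.22), of Ikzf5 in GFPhi against WT (0.36 and 0.36) and of Ikzf5 in GFPLow against WT (0.49 and 0.49), none of them called. With 1 library left out, log2 fold changes in GFPhi against GFPLow ran from -1.06 to -0.95 for Ikzf1, from 2.37 to 2.66 for Ikzf2 and from -0.24 to 0.0092 for Ikzf5, whose sign turned without GFPhi library 1. In GFPhi against WT they ran from -0.63 to -0.018 for Ikzf1, from -1.54 to -0.29 for Ikzf2, from 0.41 to 1.34 for Ikzf3, from -0.21 to 0.70 for Ikzf4 and from -1.61 to 0.36 for Ikzf5. In GFPLow against WT they ran from 0.38 to 0.998 for Ikzf1, from 0.18 to 1.10 for Ikzf3 and from -1.50 to 0.49 for Ikzf5. The sign of Ikzf5 turned without WT library 1 in both comparisons with WT, and that of Ikzf4 in GFPhi against WT.

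With the replicate block over all 8 libraries, 182, 0 and 158 genes were called in the 3 comparisons in the order above, and with the replicate block over both groups alone 1752, 22 and 217. Ikzf1 (-1.02, adjusted p = 0.136) and Ikzf2 (2.47, adjusted p = 0.0546) in GFPhi against GFPLow did not pass in the first of these edgeR fits, and Ikzf2 in GFPLow against WT (-3.33, adjusted p = 0.0562) did not in the second. No other member's call in these 2 block fits differed from that of the main fit. With both groups alone and no block, Ikzf2 in GFPLow against WT did not pass either (adjusted p = 0.0689 by edgeR). Ikzf4 in GFPLow against WT did not pass there (0.0671) and passed with the block. Deviations of same-numbered GFPhi and GFPLow libraries from their group means correlated at 0.067, 0.066 and 0.149 across genes, and each of the 6 libraries correlated best with its own number. The labels do not say what the number marks, so the number is not taken as a pairing, although same-numbered libraries were also alike in sex by Xist and Ddx3y. DESeq2 gave no adjusted p for Ikzf3, Ikzf4 and Ikzf5 in GFPhi against WT. Depth limits Ikzf5 most, with 190 to 423 reads per library.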
